A study of Mus musculus with 6 samples.

Results

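*Col4a5*, *Lama5* and *Col6a3* encode 3 chains of the extracellular matrix, the protein scaffold that surrounds cells, and their RNA was measured in mouse adipose samples of infant and adult age. They are 3 of the 312 genes in the deposited table and were picked by symbol with the difference between the ages already known, so their counts, TPM and FPKM are described here between the ages without a test. RNA was sequenced at postnatal day 6 (P6, infant) and postnatal day 56 (P56, adult), in 3 libraries per age and 6 libraries in all. The labels call the material adipose tissue macrophages, the resident phagocytes of fat, whereas the methods of the study list whole inguinal fat depots at these ages and in these numbers, from C57BL/6 mice, a common inbred strain. No treatment or genotype is given that separates the groups, which the labels distinguish by age. The study describes its mice as wild type and of both sexes. The sources used here give neither the sex of each library nor whether animals were pooled, nor do they say that the 3 libraries of an age came from separate animals, and any p-value measures only the spread between these libraries.

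Basement membranes are thin sheets on which epithelia, endothelia, muscle fibers, nerves and adipocytes rest. They are built from a laminin network, anchored to cells by integrins and dystroglycan, and a network of type IV collagen, and these networks are joined by nidogens and the heparan sulfate proteoglycan perlecan. *Col4a5* encodes the α5 chain of type IV collagen, a minor chain that is best known from the kidney filter, where its loss causes Alport syndrome. *Lama5* encodes the α5 chain of laminin, the most widespread laminin α chain in adult basement membranes. *Col6a3* encodes the α3 chain of type VI collagen, which forms beaded microfibrils next to basement membranes. Type VI collagen is abundant in fat, where the carboxy-terminal fragment cleaved from the α3 chain is known as endotrophin.

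The chains differ in build, which can be read from their coding sequences in GENCODE's annotation of GRCm38, matched by the gene ID of the table. The assembly behind the table is unknown here, and therefore no genome positions are printed. *Col4a5* (gene ID 12830) lies on chromosome X, *Lama5* (gene ID 16776) on chromosome 2 and *Col6a3* (gene ID 12835) on chromosome 1. Their longest coding transcripts have 53, 79 and 44 exons, 6536, 11388 and 10106 bases, and 1691, 3718 and 3283 codons before the stop. A collagen helix needs a glycine, encoded by GGN (N is any base), at the head of each group of 3 residues. In *Col4a5* 28.5% of codons were GGN, a share above that of 99.9% of 20905 coding genes, and 401 groups of 3 codons stood in 17 unbroken runs of at least 10 groups. In *Col6a3* the GGN share was 9.07% and there were 3 such runs with 111 groups in all, so most of this chain lies outside the helix. *Lama5* had a GGN share of 9.09%, close to that of *Col6a3*, but no such run. Of its codons 5.83% were the cysteine codons TGC or TGT, a share above that of 95.3% of coding genes. The stretches printed here, 90 bases each, show this difference: the start of the longest GGN run for both collagens, with the GGN codon that heads each group in capitals, and the window of *Lama5* richest in cysteine codons, with these in capitals. They cover coding bases 3745 to 3834 of *Col4a5*, 6493 to 6582 of *Col6a3* and 937 to 1026 of *Lama5*, 5′ to 3′.
*Col4a5*: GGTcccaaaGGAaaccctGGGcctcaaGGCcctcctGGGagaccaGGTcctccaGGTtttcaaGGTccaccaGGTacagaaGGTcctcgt
*Col6a3*: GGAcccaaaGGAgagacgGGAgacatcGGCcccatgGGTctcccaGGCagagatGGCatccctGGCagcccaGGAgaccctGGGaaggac
*Lama5*: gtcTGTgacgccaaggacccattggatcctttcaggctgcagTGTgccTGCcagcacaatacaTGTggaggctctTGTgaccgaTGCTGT

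For each gene and library 3 values were deposited: an estimated count of reads, FPKM (fragments relative to transcript length and to all fragments of the library) and TPM, a measure like FPKM that is rescaled to the same total in every library. Its 312 genes held between 497044 and 816309 counts per library, and only 2.30% to 2.69% of a library's TPM, so these totals are not the depth of a library. Dividing counts by FPKM over 196 genes returned the relative depth, called the recovered depth, which ran from 1.09 to 1.16 in the P6 libraries and from 0.795 to 0.937 in the P56 libraries, relative to their mean. None of the 16 macrophage markers and none of the 12 adipocyte markers on the lists used was among the 312 genes, so the labelled cell type could not be checked. In such bulk samples fewer cells of a type and less RNA per cell cannot be told apart.

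*Col4a5* RNA was low at P6 and several times higher at P56. Its TPM was 6.73, 6.77 and 6.69 at P6 and 28.0, 28.7 and 20.4 at P56. The 3 infant values were nearly alike and all lay below the lowest adult value, and the adult library of replicate 3 lay below the other adult libraries. The mean was 6.73 ± 0.04 TPM at P6 and 25.7 ± 4.64 TPM at P56 (SD, n = 3 each). The underlying counts were 356, 355 and 378 at P6 and 1127, 1113 and 747 at P56. At the recovered depth these were 322 ± 5.33 and 1132 ± 168 counts (SD, n = 3 each), 3.51 times higher at P56. The log2 fold change (P6 over P56) was −1.81 in edgeR, beside a spread within ages of 0.16 on the log2 scale. The spread between the P6 libraries, 1.65% of the mean, was smaller than the 5.25% that counting error alone gives for a count of this size, whereas at P56 the spread was 14.8% and counting error 3.17%. Of the 310 genes tested, 2 had a lower fold change than *Col4a5*. By mean TPM it ranked 258 of 300 genes at P6 and 139 at P56, counting those with a mean of at least 1 TPM.

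*Lama5* RNA was present at similar levels at both ages. Its TPM was 34.3, 29.1 and 26.0 at P6 and 33.0, 25.6 and 24.0 at P56. The ranges overlapped almost entirely, and replicate 1 was the highest library at each age. The mean was 29.8 ± 4.20 TPM at P6 and 27.5 ± 4.81 TPM at P56 (SD, n = 3 each). The counts were 3236, 2683 and 2607 at P6 and 2343, 1746 and 1560 at P56, which do not overlap as deposited, but the P6 libraries were also sequenced more deeply. At the recovered depth they were 2524.5 ± 319.7 and 2143 ± 309.6 counts (SD, n = 3 each) with overlapping ranges, 1.18 times higher at P6. The log2 fold change was 0.24, beside a spread within ages of 0.19 on the log2 scale. The spread between libraries was 12.7% of the mean at P6 and 14.4% at P56, larger than the counting errors of 1.88% and 2.30%.

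*Col6a3* was among the most abundant RNAs of the table at both ages, ranking 7 of 300 genes at P6 and 6 at P56. Its TPM was 615, 623 and 589.7 at P6 and 731, 698 and 488 at P56. The infant values lay between those of the adult libraries, with adult replicates 1 and 2 above and adult replicate 3 below all of them. The mean was 609 ± 17.6 TPM at P6 and 639 ± 132 TPM at P56 (SD, n = 3 each). The counts were 46406, 45995 and 47242 at P6 and 41168, 37753 and 25165 at P56, or 41326 ± 738 and 39372 ± 6707 counts at the recovered depth (SD, n = 3 each). The log2 fold change was 0.070, smaller than the spread within ages of 0.18 on the log2 scale. Its sign depended on the scale: the ratio of mean TPM gave −0.068. Counting error was 0.464% of the mean at P6 and 0.537% at P56, far below the spread of 17.0% between the adult libraries.

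**Figure D1:**
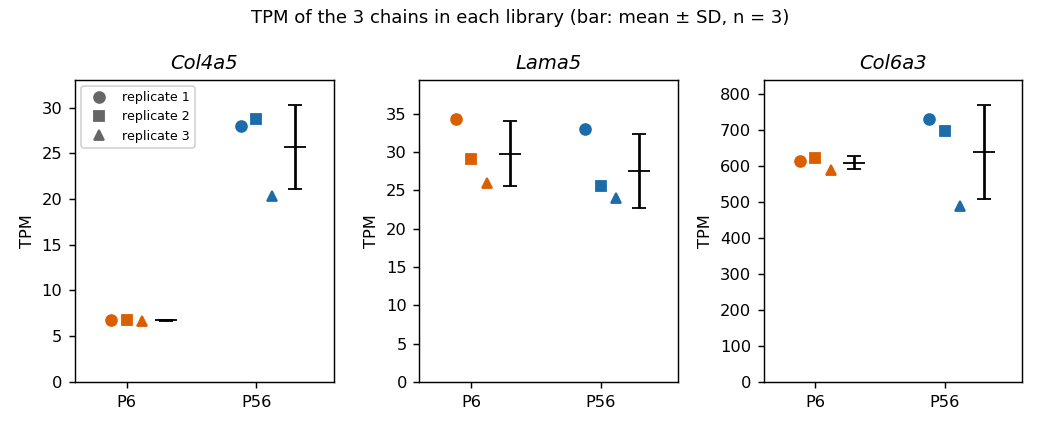
TPM (vertical axis, from 0) of *Col4a5*, *Lama5* and *Col6a3* in the 3 P6 and 3 P56 libraries, with the symbol giving the replicate and the black bar the mean and SD. *Col4a5* lies at 6.69 to 6.77 TPM at P6 and at 20.4 to 28.7 TPM at P56, while the ranges of the ages overlap for the other chains.

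At the recovered depth the ranges of the ages lay apart for 1 of the 3 chains, *Col4a5*, as they did for 67.0% of the 312 genes, 33.3% with P6 above and 33.7% with P6 below. On the TPM scale *Col4a5* was again the chain whose ranges lay apart, beside 64.4% of all genes. Since the chains were chosen on this contrast, nothing is read from these counts.

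Within a library the order of the levels was clear for *Col6a3*, which exceeded the other chains in all 6 libraries. *Lama5* and *Col4a5* were separated at P6 and not at P56. The ratio of TPM between 2 genes of a library does not depend on depth, and for *Lama5* over *Col4a5* it was 5.09, 4.30 and 3.88 at P6 and 1.18, 0.891 and 1.18 at P56. At P56 the *Lama5* level thus exceeded that of *Col4a5* in 2 libraries and lay below it in replicate 2, with mean levels closer than the spread between libraries. The ratio of *Col6a3* to *Col4a5* was 91.4, 92.1 and 88.1 at P6 and 26.1, 24.3 and 24.0 at P56. These values were tight within an age, 90.6 ± 2.11 and 24.8 ± 1.14 (SD, n = 3 each), and P56 replicate 3, in which both levels were the lowest of the adult libraries, did not stand apart in their ratio. For *Col6a3* over *Lama5* the ratio was 20.7 ± 2.46 at P6 and 23.3 ± 3.57 at P56 (SD, n = 3 each), with overlapping ranges.

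**Figure D2:**
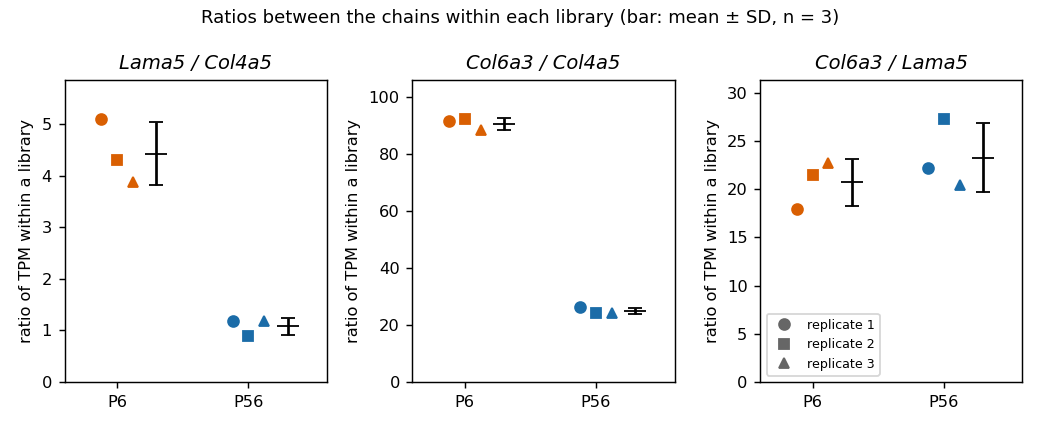
Ratio of TPM between 2 chains within each library (vertical axis, from 0) at P6 and P56, with the symbol giving the replicate and the black bar the mean and SD of 3 libraries. The ratios over *Col4a5* are 3.88 to 5.09 and 88.1 to 92.1 at P6 and 0.891 to 1.18 and 24.0 to 26.1 at P56, whereas *Col6a3* over *Lama5* overlaps between the ages.

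P56 replicate 3 was the library of least depth and held the lowest adult level of each chain on the TPM scale. Against the mean of the other adult libraries at the recovered depth, it was lower by a log2 difference of −0.39 for *Col4a5*, −0.19 for *Lama5* and −0.45 for *Col6a3*, while the median over 300 genes was −0.18. Only 28 genes deviated further downward than *Col4a5* and 17 further than *Col6a3*. The deviation of this library differed with transcript length. With genes sorted into 5 classes of nearly equal number, its median was 0.023 for the shortest transcripts and −0.13 in the class above. It was −0.22 in the middle class, which holds *Col4a5*, −0.19 in the class of *Col6a3* and −0.30 for the longest transcripts, which include *Lama5*. The part of transcript length in the values of the 3 chains was not tested. Without this library the log2 fold change was −1.93 for *Col4a5*, 0.18 for *Lama5* and −0.065 for *Col6a3*, the last with its sign turned.

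The ratio of count to FPKM also gives a relative length that the quantification assigned to a gene, which need not be its annotated transcript length. This length draws on the same deposited counts as the levels of the chains, and its comparison was added after the data were seen. Tools such as RSEM average this length over the transcripts of a gene by their estimated shares. In such tools it can be an effective length, which also depends on the fragment sizes of a library. Scaled so that *Lama5*, with 1 annotated coding transcript, has its 11388 bases, *Col6a3* came to 9104, 9102 and 9099 bases at P6 and to 9029.6, 9017 and 9023 bases at P56. The infant libraries lay above every adult library. The mean was 9102 ± 2.30 bases at P6 and 9023 ± 6.34 bases at P56 (SD, n = 3 each), a difference of 78.5 bases or 0.870%. Rounding of FPKM in the table can move a value of *Col6a3* by at most 0.00215%. An exact permutation test over 3 against 3 libraries (two-sided) could not have passed a threshold of 0.05, so nothing is read from it. The annotation holds 5 coding transcripts of *Col6a3*, among them models of 8285, 9001 and 10106 bases, to which the scaled length need not correspond. *Col4a5* has coding transcripts of 6285 and 6536 bases. Its assigned length was 6420 ± 43.0 bases at P6 and 6445 ± 17.1 at P56, with overlapping ranges. *Lama5* gave 11392 ± 17.9 and 11384 ± 13.0 bases, also with overlapping ranges. Among the 196 genes whose FPKM exceeded 5 throughout, the ranges of the assigned length lay apart in 21.4% and 52 genes had a larger relative difference than *Col6a3*. Which transcripts made up the reads was not tested, nor was the part of fragment sizes in the assigned length.

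**Figure D3:**
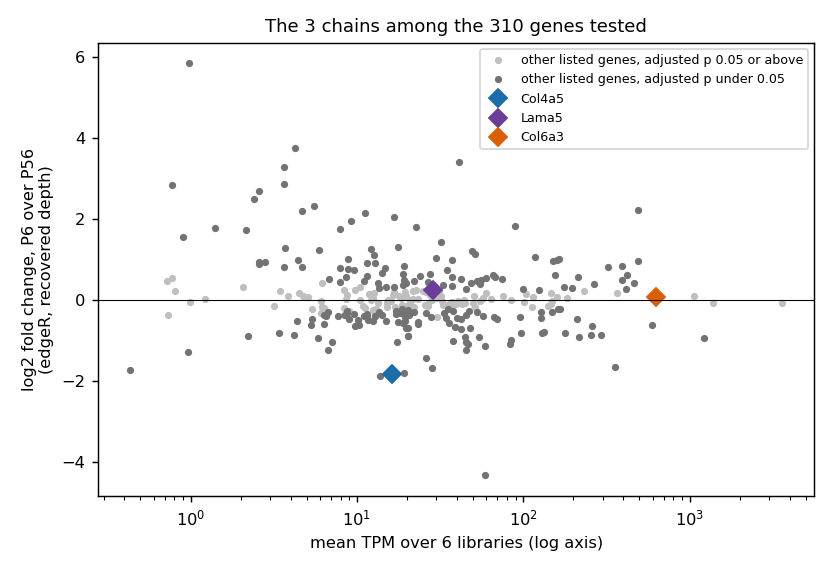
Log2 fold change of P6 over P56 (edgeR at the recovered depth) against mean TPM over 6 libraries (log axis) for the 310 genes tested, with the 3 chains as diamonds and other genes in dark gray where the adjusted p was under 0.05. *Col4a5* lies near the lower edge at −1.81, *Lama5* and *Col6a3* lie near 0 at 0.24 and 0.070, and *Col6a3* stands at the abundant end.

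Of a list of 37 structural genes, 4 besides *Col4a5* and *Lama5* were among the genes tested, and of these 2 rose, 1 fell and 1 did not pass at P6 against P56. Of all 310 genes tested 64.2% were called, 30.3% higher and 33.9% lower at P6. The 3 called of 4 partners are near that share. The deposited table is labelled as differentially expressed genes, so this share is not that of an unselected set. *Nid2* (gene ID 18074), the nidogen that links laminin to type IV collagen, rose with TPM of 159, 155 and 148 at P6 and 88.2, 80.7 and 70.9 at P56, a log2 fold change of 1.07 (standard error 0.083, Benjamini-Hochberg adjusted p = 9.85e-07 from the quasi-likelihood test of edgeR). *Hspg2* (gene ID 15530), which encodes perlecan, rose at the recovered depth by a log2 fold change of 0.42 (standard error 0.11, adjusted p = 0.00474 from edgeR), although its TPM of 481 to 523 at P6 overlapped that of 324 to 486 at P56. The call of *Hspg2* was lost when P56 replicate 3 was left out on the TPM scale (log2 fold change 0.14, adjusted p = 0.0815 from limma). *Lamb2* (gene ID 16779), the laminin β2 chain that assembles with laminin α5, fell at P6. Its TPM was 128, 119.6 and 117 at P6 and 275, 238 and 189.7 at P56, a log2 fold change of −0.82 (standard error 0.10, adjusted p = 3.93e-05 from edgeR). Relative to its partner *Lama5*, *Lamb2* stood at a TPM ratio of 4.12 ± 0.38 at P6 and 8.51 ± 0.70 at P56 (SD, n = 3 each). The ranges of this ratio lay apart between the ages, as did those of *Lamb2* TPM alone and of TPM for 64.4% of all genes. The ratio holds the values of a chosen chain and is a description. *Smoc1*, which encodes a calcium-binding basement membrane protein, did not pass (log2 fold change −0.43, adjusted p = 0.284 from edgeR), with adult TPM spread from 17.2 to 58.3. It passed only when P56 replicate 1 was left out (−0.78, adjusted p = 0.00203 from edgeR).

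Relative to *Col4a5*, *Nid2* showed the widest gap between the ages among these partners. The TPM ratio of *Nid2* to *Col4a5* was 23.7, 22.9 and 22.2 at P6 and 3.15, 2.81 and 3.48 at P56. *Lamb2*, which was lower at P6 as *Col4a5* was, had a ratio to *Col4a5* of 18.1 ± 0.87 at P6 and 9.14 ± 0.79 at P56 (SD, n = 3 each), so its difference between the ages was the smaller. These ratios share the values on which *Col4a5* was chosen and are a description.

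Beside *Col6a3*, the list of 27 microfibril and elastic fiber genes held 1 tested gene, *Ltbp1*, which encodes a protein that tethers latent TGF-β to microfibrils. It did not pass (adjusted p = 0.752 from edgeR), and its TPM was 54.1, 55.0 and 55.9 at P6 and 68.1, 63.7 and 46.4 at P56. *Ltbp1* thus had the same arrangement of libraries as *Col6a3*, with the infant values between adult replicates 1 and 2 above and adult replicate 3 below.

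Of 22 fibril-forming and fibril-associated collagens, 4 were tested and all 4 rose at P6. *Col5a2*, *Col16a1* and *Col12a1* had log2 fold changes of 0.50, 1.83 and 3.41. *Col2a1*, the cartilage collagen, was counted 96, 62 and 88 times at P6 and only 2, 1 and 0 times at P56, so its fitted fold change depends on the prior count. Among 26 receptors for basement membranes and type VI collagen, 5 were tested. *Mcam*, a laminin receptor of vessel walls, rose by a log2 fold change of 1.01 (standard error 0.11, adjusted p = 8.08e-06 from edgeR). *Itga1*, *Itgav*, *Ddr1* and *Cspg4*, the last a receptor of type VI collagen, did not pass, with log2 fold changes from −0.036 to 0.23. *Cspg4* passed when P56 replicate 3 was left out (0.47, adjusted p = 0.000174 from edgeR) and with equal library sizes. *Itgav* passed under each of the 3 other library scalings in edgeR, with log2 fold changes of 0.21 with median-of-ratios factors (adjusted p = 0.0344), 0.21 with TMM (adjusted p = 0.0269) and 0.55 with equal library sizes (adjusted p = 0.00223). Of 36 genes for collagen processing and turnover, *Lox*, which crosslinks collagens, rose (log2 fold change 0.99) and *Tgm2*, a transglutaminase, fell (−0.92). Over the 5 lists 16 genes besides the 3 chains were tested, of which 8 rose, 2 fell and 6 did not pass, a share of 62.5% called with a median log2 fold change of 0.32. Over all genes tested the share was 64.2% and the median −0.026, so the share called in the lists was near the background. The split by direction over all genes, 94 higher and 105 lower, became 148 and 34 when library sizes were set equal.

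**Figure D4:**
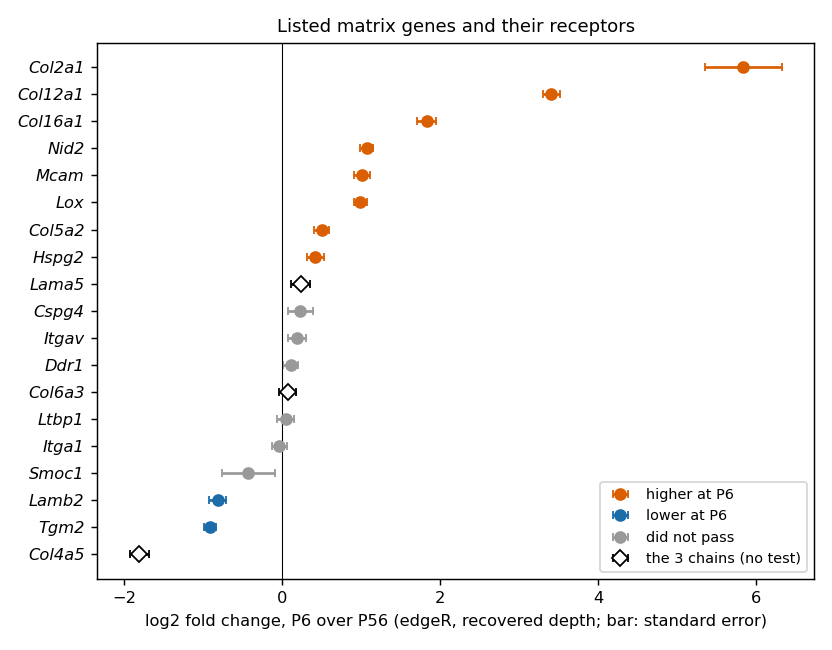
Log2 fold change of P6 over P56 with its standard error (edgeR at the recovered depth). Dots are the 16 listed matrix genes and receptors, colored by whether they passed an adjusted p of 0.05. Open diamonds are the 3 chains, which were in the same fit but for which no test is read. *Col4a5* has the lowest value, −1.81, below *Tgm2* and *Lamb2*, while *Lama5* at 0.24 and *Col6a3* at 0.070 lie next to genes that did not pass.

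The genes whose profile over the 6 libraries was closest to each chain were named by the root mean square difference of centered log2(TPM + 1) among 299 other genes. *Col4a5* was closest to *Zhx3*, which encodes a zinc finger and homeobox protein, at a difference of 0.078, against a median of 0.84 over all genes. *9930111J21Rik1*, whose counts were not whole, came next at 0.14, followed by *Acta1*, the actin of skeletal muscle, at 0.15. *Zhx3*, *9930111J21Rik1* and *Acta1* had log2 fold changes of −1.67, −1.87 and −1.64, near the −1.81 of *Col4a5*. The difference between the ages, on which the chains were chosen, enters this measure, so closeness is a description. *Lama5* was closest to *Flna* (0.071), *Cep170b* (0.080) and *Pde1b* (0.080), against a median of 0.27. *Col6a3* was closest to *Ltbp1* (0.046), and *Larp4b* (0.054) was also near, against a median of 0.24. *Flna* encodes filamin A, which crosslinks actin filaments.

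Some markers of muscle differed between the ages beside these chains. Of 10 skeletal muscle markers 2 were listed, *Acta1* and *Neb*, both of which fell at P6 (log2 fold changes −1.64 and −1.73). Their summed TPM was 151 to 173 at P6 and 542 to 562 at P56, in the direction of *Col4a5*. This sum was almost wholly *Acta1*, since *Neb* was near the floor with 0.17 to 0.21 TPM at P6 and 0.51 to 0.78 at P56. Of 12 markers of smooth muscle and pericytes 7 were listed, of which 4 rose at P6 (*Acta2*, *Tagln*, *Cnn1* and *Mcam*) and 3 did not pass. The latter were *Cspg4* (log2 fold change 0.23), *Smtn* (0.16) and *Lmod1* (−0.23). The summed TPM of the 7 was 1053 to 1439 at P6 and 776 to 888 at P56, a sum that not every member followed. These counts stand beside the 64.2% called over all genes. Their part in the values of the 3 chains was not tested. None of the markers of fibroblasts and preadipocytes (11), endothelium (9), Schwann cells (6) or epithelium (6) was among the 312 genes.

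How far the 3 chains moved between the ages depended on the scaling in the same way for each. Library sizes set equal, which does not correct for the higher sequencing depth at P6, raised the median log2 fold change of all tested genes from −0.026 to 0.34 and put *Col4a5* at −1.46, *Lama5* at 0.59 and *Col6a3* at 0.42. On the TPM scale the median was −0.14 and the chains stood at −1.77, 0.11 and −0.046 in limma on log2(TPM + 1). Relative to the median of all tested genes, *Col4a5* lay between −1.85 and −1.63, *Lama5* between 0.17 and 0.36 and *Col6a3* between −0.00229 and 0.157 over 17 settings. *Col4a5* was lower at P6 in all 17 settings and *Lama5* higher in all 17, while *Col6a3* was above 0 in 13 and below 0 in 4. The settings reuse the 6 libraries on which the chains were chosen, so these numbers are a description.

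**Figure D5:**
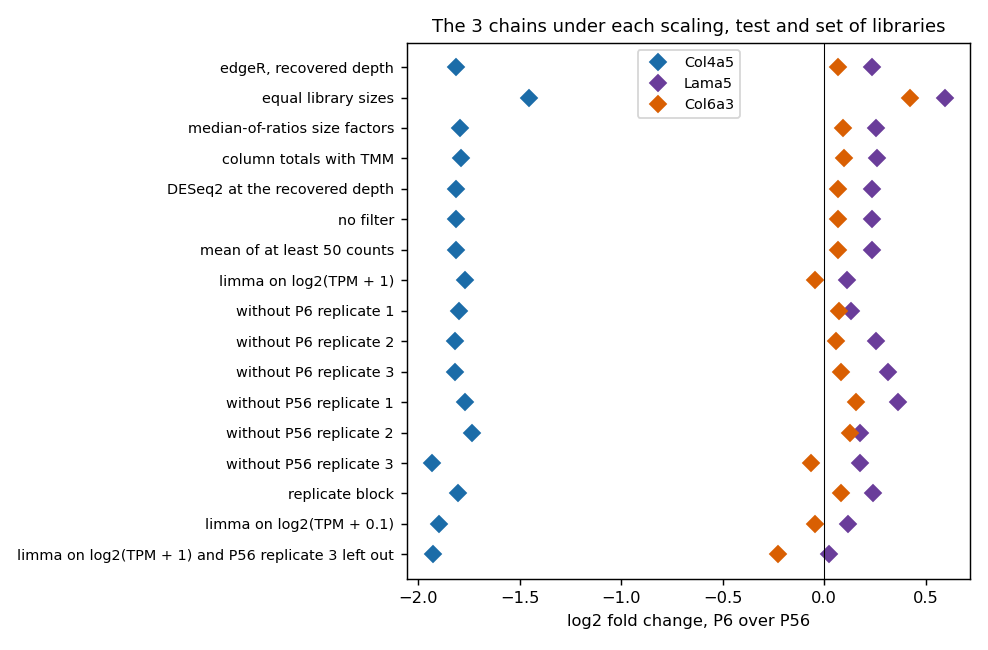
Log2 fold change of P6 over P56 (horizontal axis) of the 3 chains under each of 17 settings of scaling, test and libraries (vertical axis). *Col4a5* runs from −1.93 to −1.46 and *Lama5* from 0.025 to 0.59, whereas *Col6a3* runs from −0.23 to 0.42, on both sides of 0.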

How the data were processed

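RNA of 3 P6 and 3 P56 libraries was analyzed, grouped by the ages and replicate numbers in the labels. Per the labels, poly(A) RNA was sequenced as DNA nanoballs, and the submitters' processing notes name HISAT, Bowtie2, RSEM and DESeq2, with no version or genome build stated. Estimated counts were deposited without normalization, and 23 genes, none of the 3 chains among them, hold values that are not whole. TPM and FPKM were also deposited, both scaled by the authors over whole libraries. The deposited table is labelled as DEGs, or differentially expressed genes, but how its 312 genes were selected was not stated. Adjusted p-values and shares called apply within this selection of genes. If the genes were selected on these libraries, the tests are not independent of that selection. The last 3 columns hold the authors' own comparison and were not used.

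Relative depth was the median of count over FPKM, taken across genes whose FPKM exceeded 5 throughout. Counts were rounded and fitted with edgeR 4.0.16 in R 4.3.3 (quasi-likelihood, library sizes set to that depth, no TMM, mean of at least 10 counts, which 310 genes passed, Benjamini-Hochberg adjustment over these, adjusted p under 0.05). Alternatives were other library scalings, DESeq2 1.42.0, other count filters (none, or a mean of at least 50), limma 3.58.1 on log2(TPM + 1) and log2(TPM + 0.1), each library left out, and the replicate number as a block. The standard error given with edgeR was the absolute log2 fold change divided by the square root of the F statistic of its test. The chains were among the 310 genes fitted and adjusted, but no test is read for them from the fit or its standard errors. The fit was checked on simulated counts.

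The chains, the 5 matrix lists (148 genes) and the 8 marker lists (82 genes) were chosen with earlier results of these data known. Named genes are the chains, the listed matrix genes, the listed markers and the 3 closest profiles to each chain, of which 1 is not reported here. Transcript models came from GENCODE M21 on GRCm38, matched by gene ID for 309 genes. Annotated genes overlap each chain (2 processed pseudogenes within *Col4a5*, a microRNA within *Lama5*, an unverified transcript in *Col6a3*). The strand setting of the counting was not stated. The assigned length was compared by exact permutation, a test added after the data were seen and from which nothing is read. Counting errors cover counting alone.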

Additional observations from a re-analysis of the deposited data

How the results depend on the processing

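Between 172 and 232 genes were called in the 16 alternatives, against 199 in the fit reported, and between 9 and 14 of the matrix lists, against 10. The split between directions moved with the scaling: 94 genes were higher and 105 lower in the fit reported, but 148 and 34 when library sizes were set equal, and 78 and 154 in limma on log2(TPM + 1) with P56 replicate 3 left out, an alternative chosen after seeing the data. Of the 199 genes, 128 were also called with equal library sizes. The log2 fold changes of the chains moved by more than the SD within ages in 5 values: with equal library sizes *Col4a5* gave −1.46, *Lama5* 0.59 and *Col6a3* 0.42, and on the TPM scale without P56 replicate 3 *Lama5* gave 0.025 and *Col6a3* −0.23. With each library left out in turn, *Col4a5* ranged from −1.93 to −1.73, *Lama5* from 0.13 to 0.36 and *Col6a3* from −0.065 to 0.16, the number of genes called from 172 to 221 and that of the matrix lists from 10 to 11. A block on the replicate number gave 213 calls, among them all 199, and 10 of the matrix lists, and put the chains at −1.80, 0.24 and 0.084. Deviations of same-numbered libraries correlated at 0.097, 0.13 and 0.24 over 310 genes for replicates 1, 2 and 3. These were above 0.1 for replicates 2 and 3 but not for replicate 1. No pairing was assumed in the fit reported. *Smoc1* was called only without P56 replicate 1, and the call of *Cspg4* appeared without P56 replicate 3, as did those of *Ltbp1* (−0.26) and *Itga1* (−0.24) on the TPM scale. Equal library sizes also gave calls of *Cspg4* (0.62), *Itgav* (0.55), *Ddr1* (0.47) and *Ltbp1* (0.40), and *Itgav* was called with median-of-ratios factors and with TMM as well (0.21 each). The cause of these changes was not tested. For *Col4a5* at P6 the spread of 3 libraries was 1.65% and counting error 5.25%, and whether depth limits that level was not tested.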
